A study of Mus musculus with 59 samples.

Results

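The Igh P4ΔPax5GV allele carries PAIR4 with a mutated Pax5-binding site, and its effect on VH gene recombination was read from 3 VDJ-seq libraries of homozygous Igh P4ΔPax5GV/P4ΔPax5GV pro-B cells, out of 48 VDJ-seq libraries and 59 samples in the series. The members are the libraries with that genotype label, and they were compared with 2 Igh+/+ libraries with neighbouring experiment numbers. Each library was prepared from pro-B cells of the bone marrow of 1 mouse, which were sorted ex vivo by flow cytometry. The age of these mice is not given in the sources used here. The mutant allele lacks 890 kb of the distal VH gene cluster with all PAIR elements. At the deletion point it holds a module consisting of PAIR4 with the mutated Pax5 site, Gfp cDNA with polyadenylation sites in place of the PAIR4-derived transcript, and the VH8-7 gene with its downstream V8.7E enhancer. The sites flanking the deleted interval were placed in ES cells, the interval was removed by Cre in mice, and the modules were then inserted in ES cells that carried the deletion, so that each allele was passed on through the germ line. As the Igh+/+ alleles have neither the deletion nor the module, the difference from Igh+/+ cells combines the deletion, the module and the mutated site, and these cannot be told apart in that comparison. For this reason 2 further homozygous genotypes were set beside it, each with Igh+/+ libraries of its own experiment series. These were Igh P4GV/P4GV (3 libraries and 3 Igh+/+ libraries), which has the same deletion and module with an intact Pax5 site, and Igh Δ890/Δ890 (3 libraries and 3 Igh+/+ libraries), which has the deletion alone.

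Another 2 libraries with neighbouring experiment numbers are labelled Igh+/+ but were set aside, as VH genes of the deleted interval made up 0.261% and 0.358% of their joints, compared with 9.79% and 10.3% in the 2 control libraries. The file of 1 of them was identical to that of a library labelled Igh P4ΔCtcfGV/P4ΔCtcfGV. VDJ-seq counts recombined DNA and no RNA, so that the pro-B cell label could not be checked against marker genes. Close paralogues within a VH family can exchange assigned reads, and values of single family members are uncertain to that extent. The files give percentages and no number of joints. The smallest usage above 0 was 0.00685% in mutant library 1, but 0.000803% and 0.000898% in mutant libraries 2 and 3 and 0.000851% and 0.00101% in the controls, so that a rare gene could be listed at 0 more easily in mutant library 1. VH gene names with a usage above 0 numbered 101, 146 and 145 in the mutant libraries 1 to 3 and 176 and 171 in the controls. The first mutant library thus listed the fewest genes, also outside the deletion, where 96 names were used compared with 131 in mutant library 2. The part of this difference in the results below was not tested, but leaving out each library in turn is given beside the counts that moved.

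An IgH heavy-chain gene is assembled in pro-B cells in 2 steps, DH to JH and then VH to the DJH segment, by the RAG recombinase, which cuts at a recombination signal sequence (RSS) made of a heptamer, a spacer and a nonamer next to each segment. The mouse VH genes form families by sequence similarity. The proximal end of the cluster near the DH segments is rich in VH5 and VH2 genes, whereas the distal end consists mostly of VH1 genes interspersed with VH8 genes. Distal VH genes reach the DJH segment through loop extrusion and contraction of the locus, for which the B-lineage transcription factor Pax5 is required. PAIR elements are repeats in the distal cluster that bind Pax5, E2A, CTCF and YY1.

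The sequences that define the mutant are the 35-base Pax5-binding site of PAIR4 and its mutated version, which are shown 5′ to 3′ with the bases that differ in capitals.
wild-type: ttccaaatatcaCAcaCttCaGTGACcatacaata
mutant: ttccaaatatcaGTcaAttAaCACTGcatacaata
The mutant differed from the wild-type sequence at 9 positions, which are C13G, A14T, C17A, C20A, G22C, T23A, G24C, A25T and C26G when counted from 1 at the 5′ end of the printed strand. In the mm9 genome the wild-type sequence was present on the minus strand of chromosome 12, the strand that also carries the VH genes, at chr12:116500696-116500730. This copy is intergenic and lies between VH1-56 and VH8-8 in the mm9 annotation, which has no entry for VH8-7. In mm10 VH8-7 is also located between these genes. Identical copies were found at 3 further places, chr12:116410018-116410052, chr12:116712572-116712606 and chr12:117009446-117009480. All 4 matches are located in the interval that the 890-kb deletion removes, and the mutant sequence had 0 matches in the genome.

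The deletion was visible in the VH genes of the deleted interval. Their summed usage was 0.401%, 0.535% and 0.469% in the mutant libraries, in contrast to 9.79% and 10.3% in the Igh+/+ libraries. Usage is given throughout as the percentage of all unique VDJH and DJH joints of a library. This contrast is no test, as libraries labelled Igh+/+ were set aside for lacking these genes. The mutated Pax5 site cannot be seen in these values, as the P4GV libraries gave 0.344%, 0.432% and 0.476%. The VH8-7 gene (mm10 chr12:115258139-115258432, minus strand), which is the only VH gene of the interval restored by the module, contributed 0.226%, 0.299% and 0.232% in the mutant libraries. The remaining genes of the interval together gave 0.175%, 0.236% and 0.238%, spread over 4, 14 and 15 gene names. In Igh+/+ cells VH8-7 was used in 0.237% and 0.212% of the joints, and the groups overlapped (difference 0.028%, exact permutation test, two-sided, p = 0.6). As a share of the VDJH joints only, VH8-7 usage was 0.652%, 0.789% and 0.643% in the mutant libraries compared with 0.578% and 0.492% in the controls, without overlap (mean 0.695% ± 0.0817 (SD, n = 3) and 0.535% ± 0.0608 (SD, n = 2), exact permutation test p = 0.1). The denominator of this share differs between the genotypes, as the deleted interval supplies many VDJH joints only in the controls. A gene with the same share of all joints would be higher in the mutant on this scale, so no gain of VH8-7 is read from it. With 3 libraries against 2 the exact permutation test has 10 arrangements, and 0.1 is the smallest p that it can give.

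VDJH joints were less frequent in the mutant libraries, at 34.7%, 37.9% and 36.05% of all joints, than in the Igh+/+ libraries, at 41.1% and 43.03%. The groups did not overlap, and the difference was -5.86% (36.2% ± 1.61 (SD, n = 3) against 42.1% ± 1.38 (SD, n = 2), exact permutation test p = 0.1). This order depended on the genes that the mutant allele lacks. When only VH genes outside the deleted interval were counted, VDJH joints made up 34.3%, 37.3% and 35.6% in the mutant libraries and 31.3% and 32.8% in the controls. On that count the mutant libraries were higher by 3.70% without overlap (exact permutation test p = 0.1). The VH genes that remained on the mutant allele therefore supplied more joints in all 3 mutant libraries than the same genes did in either control library.

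The largest relative gain of any region lay upstream of the insertion, at the 6 VH1 genes from VH1-85 to VH1-80 that were the used genes with a position beyond the deletion. Their summed usage was 2.56%, 2.95% and 2.89% in the mutant libraries and 1.51% and 1.72% in the Igh+/+ libraries. Mutant usage was 1.73-fold that of the controls (2.80% ± 0.213 (SD, n = 3) and 1.62% ± 0.149 (SD, n = 2)), and every mutant library was above both controls (exact permutation test p = 0.1). Expressed as a share of VDJH joints, the sums were 7.38%, 7.801% and 8.02% compared with 3.68% and 4.00%.

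**Figure D1:**
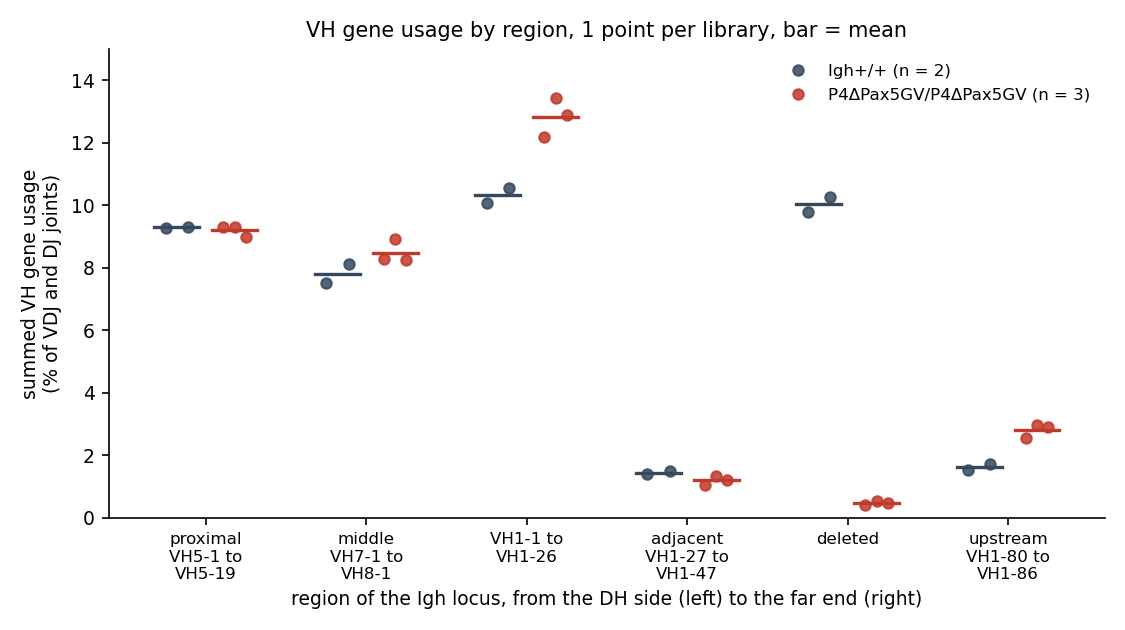
Summed VH gene usage by region of the Igh locus, from the DH side (left) to the distal end (right), as a percentage of all VDJH and DJH joints on a linear axis from 0. Each point is 1 library (red, 3 mutant; dark, 2 Igh+/+) and the bars are group means. The mutant points lie above the controls upstream of the deletion (2.56% to 2.95% compared with 1.51% and 1.72%) and from VH1-1 to VH1-26, and far below them in the deleted interval.

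The 6 distal genes did not contribute equally, and VH1-81 and VH1-80, the genes nearest to the module, carried most of the gain. VH1-81 (mm10 chr12:115920279-115920572) was used in 1.13%, 1.26% and 1.23% of mutant joints and 0.546% and 0.644% of control joints. Its usage was 2.03-fold that of the controls (log2 change 1.01, SE 0.10, adjusted p = 0.00213, limma with Benjamini-Hochberg adjustment over all genes tested). VH1-80 (chr12:115912344-115912637) was used in 0.483%, 0.524% and 0.561% of mutant joints and in 0.242% and 0.233% of control joints, a ratio of 2.20 (log2 change 1.10, SE 0.12, limma adjusted p = 0.00213). For both genes the lowest mutant library was well above the highest control library. VH1-82 (chr12:115952538-115952831) was used in 0.555%, 0.801% and 0.776% of mutant joints compared with 0.411% and 0.569% in the controls. It overlapped between the groups and did not pass the test (log2 change 0.53, SE 0.20, limma adjusted p = 0.159).

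The 3 most distal genes showed smaller differences that did not pass the test. VH1-85 (chr12:116000028-116000321), the farthest gene from the DH segments that had both a position in the annotation and a usage above 0, was at 0.247%, 0.185% and 0.164% in the mutant libraries and at 0.163% and 0.124% in the controls, so that its lowest mutant and highest control library were almost equal (log2 change 0.43, SE 0.24, limma adjusted p = 0.271). VH1-84 (chr12:115980702-115981134) had 0.0822%, 0.0675% and 0.0647% compared with 0.0570% and 0.0827% (log2 change 0.04, SE 0.30, adjusted p = 0.938 in limma). VH1-83 (chr12:115963817-115964109) had 0.0616%, 0.112% and 0.101% compared with 0.0932% and 0.0706% (log2 change 0.12, SE 0.33, limma adjusted p = 0.824). VH1-84 and VH1-83 were the least used of the 6 genes in every one of the 5 libraries, and for these 2 genes no direction can be read. VH1-86 lies farther upstream and was at 0 in all 5 libraries. In all, 6 of 6 distal genes had a log2 change above 0, with a median of 0.48 compared with 49 of 104 and -0.02 over all genes tested. This count includes VH1-84 and VH1-83, whose log2 changes ranged from -0.19 to 0.27 and from -0.060 to 0.35 with each library left out. The test was passed by 2 of the 6, compared with 11 higher genes of 104 (10.6%).

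**Figure D2:**
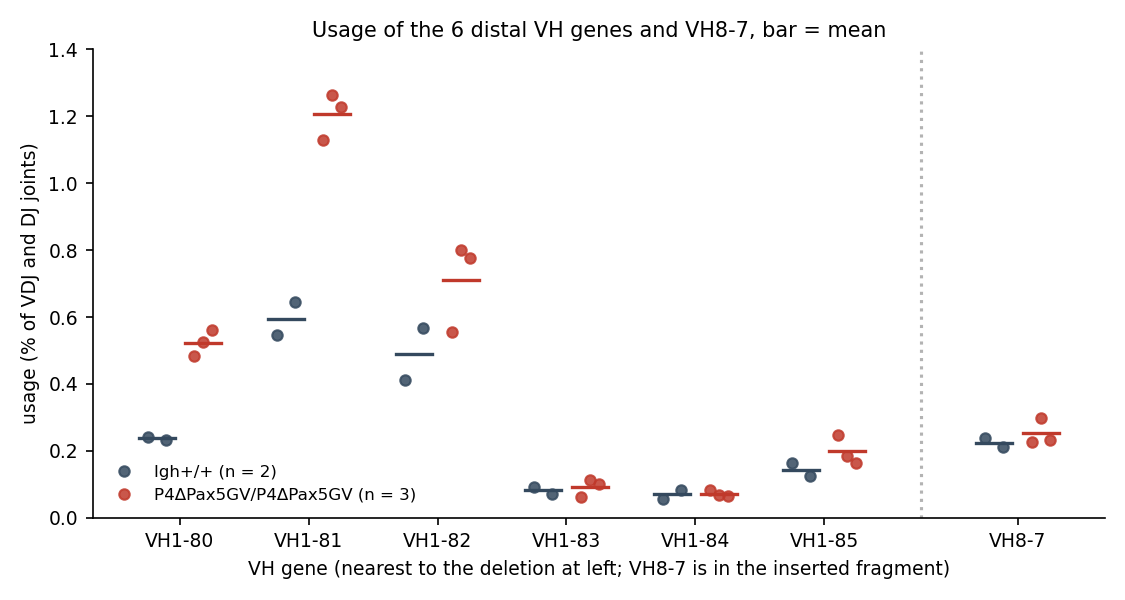
Usage of the 6 distal VH genes, with the gene nearest to the deletion at the left, and of VH8-7 as a percentage of all joints. Each point is 1 library and the bars are group means. The points of VH1-81 and VH1-80 are separated between the 3 mutant and the 2 Igh+/+ libraries (0.483% or more compared with 0.242% or less for VH1-80), whereas those of VH1-84, VH1-83 and VH8-7 overlap.

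The difference between VH1-81 and its neighbours was compared with the RSS of each gene, as the RSS is the sequence at which RAG cuts. The 39 bases that follow each coding end are shown 5′ to 3′ from the minus strand of the mm9 genome, with the heptamer (7 bases) and nonamer (9 bases) in capitals and the 23-base spacer in lower case.
VH1-80: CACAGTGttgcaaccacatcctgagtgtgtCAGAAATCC
VH1-81: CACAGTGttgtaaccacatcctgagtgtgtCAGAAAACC
VH1-82: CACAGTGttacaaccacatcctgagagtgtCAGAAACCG
VH1-83: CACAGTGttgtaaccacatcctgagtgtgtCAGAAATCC
VH1-84: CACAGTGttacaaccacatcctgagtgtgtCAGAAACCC
VH1-85: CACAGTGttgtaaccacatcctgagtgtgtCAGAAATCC
These sites lie between chr12:117150516-117150554 for VH1-80 and chr12:117238200-117238238 for VH1-85. All 6 genes have the heptamer CACAGTG. The RSS of VH1-83 and VH1-85 are identical (0 mismatches), although VH1-85 was used more in each of the 5 libraries. VH1-80 and VH1-81 each differ from VH1-85 by 1 base, and VH1-82 differs from VH1-85 by 5 bases. Over all genes tested for which the bases after the annotated coding end were read, 44 of 70 (62.9%) had CACAGTG directly there. The same was found for 7 of the 11 genes that rose (63.6%). The annotated end is not always the start of the RSS, as the bases read for VH1-15 begin with AGACACAGTG. These shares therefore depend on the annotation and do not count the genes that have a CACAGTG heptamer. The sequences shown are a description and no measure of RSS strength.

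Downstream of the insertion, on the DH side, the values of the adjacent genes were mostly lower in the mutant libraries, but none of these genes passed the test. The summed usage of VH1-47, VH1-43, VH1-42, VH1-39, VH1-37 and VH1-36 was 0.719%, 0.772% and 0.767% in the mutant libraries and 0.918% and 1.07% in the Igh+/+ libraries. This was 0.756-fold the control level without overlap (0.753% ± 0.0293 (SD, n = 3) and 0.996% ± 0.110 (SD, n = 2), exact permutation test p = 0.1). VH1-47 (mm10 chr12:114991108-114991401), the gene next to the deletion point, was at 0.308%, 0.251% and 0.288% compared with 0.365% and 0.387%, with all mutant libraries below both controls (log2 change -0.41, SE 0.14, limma adjusted p = 0.119). VH1-36 was at 0.0411%, 0.107% and 0.0844% compared with 0.129% and 0.134%, again without overlap (log2 change -0.77, SE 0.39, adjusted p = 0.239 in limma).

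Among the other genes of this stretch, VH1-42 (0.103%, 0.130% and 0.143% compared with 0.139% and 0.188%), VH1-39 (0.267%, 0.249% and 0.238% compared with 0.242% and 0.325%) and VH1-27 (0.0890%, 0.152% and 0.0952% compared with 0.136% and 0.101%) overlapped between the groups. VH1-37 had a lower ratio to the controls (0.326) than VH1-47 or VH1-36, as it was used in 0.0306% and 0.0302% of control joints and in at most 0.0217% of mutant joints, and was at 0 in the first mutant library (limma log2 change -1.18, SE 0.52, adjusted p = 0.203). VH1-43 was too rare for the test, with 0%, 0.0145% and 0.00539% in the mutant libraries and 0.0128% and 0.00907% in the controls. Of the 10 adjacent downstream genes tested from VH1-27 to VH1-47, 0 passed the threshold by limma and 1 had an unadjusted p below 0.05, compared with 13 (12.5%) and 25 of all 104 genes tested. The log2 change was below 0 for 9 of the 10 genes, with a median of -0.26, and for 55 of the 104.

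By region, the mutant allele gained most in 2 stretches, the distal end and the VH genes from VH1-1 to VH1-26. The latter block gave 12.2%, 13.4% and 12.9% of joints in the mutant libraries and 10.1% and 10.6% in the controls (difference 2.52%, exact permutation test p = 0.1, adjusted p = 0.15 over 6 regions). In absolute terms this was the largest gain of any region, and the mutant libraries did not overlap with the controls. The middle region from VH7-1 to VH8-1 gave 8.27%, 8.93% and 8.26% compared with 7.497% and 8.13% (difference 0.672%, exact permutation test p = 0.1, adjusted p = 0.15), but it was lower in the mutant as a share of VDJH joints outside the deletion (difference -0.634%). The proximal region, which is closest to the DH segments, was at 9.31%, 9.29% and 8.999% compared with 9.27% and 9.32%, and the groups overlapped (difference -0.0934%, exact permutation test p = 0.8, and 3.34% as a share of VDJH joints). The adjacent downstream region summed to 1.04%, 1.33% and 1.20% compared with 1.38% and 1.5002% without overlap (difference -0.249%, exact permutation test p = 0.2, adjusted p = 0.24).

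Of the 253 gene names listed in the files, 183 were placed on the mm10 RefSeq annotation. In the 5 libraries 191 listed names were not placed in the deletion (57 of them had no position at all and may lie in it), of which 104 had a mean usage of at least 0.01% and were tested (87 placed and 17 without a position). The 87 names below that level together made up at most 0.176% of the joints of any library. With limma, 13 of the 104 genes (12.5%) passed an adjusted p of 0.05, of which 11 were higher (10.6%) and 2 lower (1.92%) in the mutant libraries, and 25 had an unadjusted p below 0.05. Without overlap between the groups, 32 genes were higher (30.8%) and 22 lower (21.2%). The number of calls rested on single libraries, as it was 29 without mutant library 1, 5 without Igh+/+ library 2 and 1 without Igh+/+ library 1, where VH1-80 and VH1-81 each had an adjusted p of 0.055 by limma. The direction also depended on the denominator. As a share of VDJH joints, 19 of 114 genes were higher (16.7%) and 3 lower (2.63%), with a median log2 change of 0.16, whereas as a share of VDJH joints with VH genes outside the deletion 7 of 118 were higher (5.93%) and 8 lower (6.78%), with a median of -0.22. In these scalings 12 and 9 of the 13 genes were called again.

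The 11 genes that rose were located in the VH1-1 to VH1-26 block (7 of 30 tested), in the middle region (2 of 24) and at the distal end (2 of 6), and none of the 17 proximal genes tested passed. The first block holds members of small families between VH1 genes. VH12-3 (mm10 chr12:114366526-114366819), the most used VH12 gene, was at 1.31%, 1.22% and 1.26% compared with 0.873% and 0.838% (1.48-fold, log2 change 0.56, SE 0.08, limma adjusted p = 0.00412). VH10-1 (chr12:114479007-114479451) was at 1.05%, 1.10% and 1.01% compared with 0.646% and 0.715% (1.55-fold, limma adjusted p = 0.00412). VH6-3 (chr12:114391712-114392010) was at 0.678%, 0.634% and 0.660% compared with 0.378% and 0.429% (1.63-fold, limma adjusted p = 0.00412). In each of these genes the 3 mutant libraries varied little and lay above both controls.

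In the same block 2 genes of the VH1 family nearly doubled in usage. VH1-15 (chr12:114657353-114657646) was at 0.473%, 0.461% and 0.399% compared with 0.209% and 0.238%, a ratio of 1.99 (log2 change 0.96, SE 0.14, limma adjusted p = 0.00412). VH1-12 (chr12:114615850-114616143) was at 0.442%, 0.381% and 0.427% compared with 0.221% and 0.223%, a ratio of 1.88 (log2 change 0.88, SE 0.13, limma adjusted p = 0.00412). VH13-2 (chr12:114357761-114358060) was at 1.27%, 1.03% and 0.959% compared with 0.707% and 0.747% (1.495-fold, limma adjusted p = 0.0310). VH11-2 (chr12:114048241-114048704) in the middle region was at 0.688%, 0.587% and 0.546% compared with 0.370% and 0.398% (1.58-fold, limma adjusted p = 0.0168). VH10-3 and VH9-4, the remaining genes that rose, were picked for mention after their values were seen, with ratios of 1.52 each (limma adjusted p = 0.00679 and 0.0236). VH1-26, which had the highest mean usage of the VH1 genes outside the deletion over all 5 libraries, was at 0.928%, 1.37% and 1.23% compared with 0.923% and 1.07%, and overlapped (log2 change 0.22, SE 0.17, limma adjusted p = 0.419).

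Of the 2 genes that fell, VH15-2 (chr12:114564578-114564874) lies in the same block as the genes that rose. Its usage was 0.205%, 0.248% and 0.321% compared with 0.449% and 0.454%, which was 0.572-fold the control level (log2 change -0.81, SE 0.19, limma adjusted p = 0.0346). VH1S5, a name without a position in the annotation, was listed at 0 in all 3 mutant libraries and at 0.0562% and 0.0439% in the controls (limma adjusted p = 0.00402). It was also listed at 0 in the 3 Igh Δ890/Δ890 libraries, and whether it lies in the deleted interval could not be told from the annotation.

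**Figure D3:**
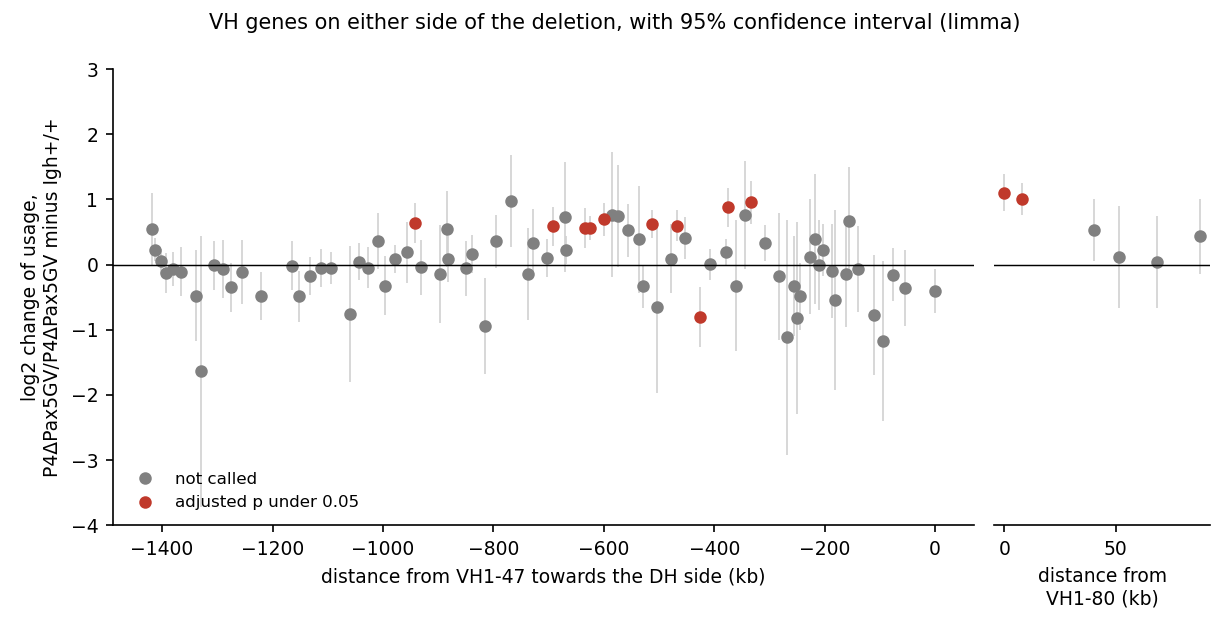
Log2 change of each tested VH gene with a position, mutant minus Igh+/+, against its distance in kb from VH1-47 on the DH side (left panel) and from VH1-80 on the distal side (right panel). The vertical lines are 95% intervals of limma, and red points passed an adjusted p of 0.05. The 9 genes that rose on the DH side and VH1-80 and VH1-81 at the distal end are separated by the genes next to the deletion, 9 of 10 of which are below 0.

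At the proximal end the most used genes of the locus were close to the controls. VH5-2 (chr12:113578504-113578990), the most used VH gene, was at 3.06%, 2.78% and 2.69% in the mutant libraries and at 2.40% and 2.44% in the controls. All mutant libraries were above both controls, but the gene did not pass the test (1.18-fold, log2 change 0.23, SE 0.08, limma adjusted p = 0.113). VH2-2 was at 1.603%, 1.46% and 1.51% compared with 1.52% and 1.42% (1.03-fold, adjusted p = 0.776 in limma) and overlapped.

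When the VH genes outside the deletion were summed by family, VH6, VH10, VH11, VH12 and VH13 usage was higher in every mutant library than in either control library, with similar ratios. VH6 genes summed to 1.56%, 1.34% and 1.41% compared with 0.817% and 1.02% (1.56-fold). VH10 genes were at 1.75%, 1.89% and 1.73% compared with 1.11% and 1.22% (1.53-fold). VH11 genes were at 0.904%, 0.879% and 0.808% compared with 0.574% and 0.587% (1.49-fold). VH12 usage was 1.48-fold (1.39% ± 0.0446 (SD, n = 3) and 0.941% ± 0.00891 (SD, n = 2)) and VH13 usage 1.495-fold that of the controls (1.09% ± 0.165 and 0.727% ± 0.0282). The VH13 sums match the usage of VH13-2 given above and are no separate result. Each of these families had the smallest p that the exact permutation test allows, 0.1, and an adjusted p of 0.16 over the families. Their direction was the same under both other denominators. Part of the pattern was shared with the other alleles. VH6, VH10 and VH12 were also higher in every P4GV and Δ890 library than in the Igh+/+ libraries of their own series. VH10 was at 1.37%, 1.72% and 1.83% compared with 1.11%, 1.06% and 1.14% for P4GV. For Δ890 it was at 1.44%, 1.62% and 1.62% compared with 1.15%, 1.09% and 1.26%. VH11 overlapped with the controls on both alleles, and VH13 only on the P4GV allele.

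VH15, VH14, VH8 and VH2 were the families with lower usage, of which VH2 was higher when usage was taken as a share of VDJH joints (difference 0.5997%). VH15 genes summed to 0.205%, 0.248% and 0.321% compared with 0.449% and 0.454% (0.572-fold), and VH14 genes to 0.555%, 0.783% and 0.717% compared with 0.866% and 1.02% (0.727-fold), both without overlap. VH8 genes outside the deletion were at 0.411%, 0.530% and 0.455% compared with 0.636% and 0.550% (0.785-fold), again without overlap. VH2 genes, which are proximal, were at 3.84%, 3.96% and 3.78% compared with 4.39% and 4.07% (0.912-fold), without overlap. The adjusted p in the exact permutation test was 0.291 for VH8 and 0.16 for each of the other families.

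The large families VH5 and VH1 overlapped between the groups. VH5, the main proximal family, was at 6.02%, 6.09% and 5.86% compared with 5.77% and 6.03% (1.02-fold), and it was lower by 1.64% as a share of VDJH joints outside the deletion. VH1, the largest family with 82 names outside the deletion, was at 9.56%, 12.1% and 11.5% compared with 9.004% and 9.65% (1.19-fold). Its lowest library was the first mutant library, which was within the range of the controls, and 4 of its 41 tested genes rose and 1 fell, a share near that over all genes tested (10.6% higher and 1.92% lower). VH3 (1.12-fold) and VH7 (1.07-fold) were higher without overlap, whereas VH4 (1.04-fold) and VH9 (1.10-fold) overlapped, and the direction of VH7, VH4 and VH9 was the opposite as a share of VDJH joints outside the deletion. VH16-1 was at 0 in 4 of 5 libraries and at 0.00269% in mutant library 3. Among the most used genes of these families, VH3-6 (ratio 1.08), VH4-1 (1.03), VH7-1 (0.967), VH9-3 (0.973), VH14-3 (0.977) and VH8-2 (0.793) did not pass the limma test, with adjusted p-values of 0.664, 0.824, 0.82, 0.824, 0.886 and 0.2.

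**Figure D4:**
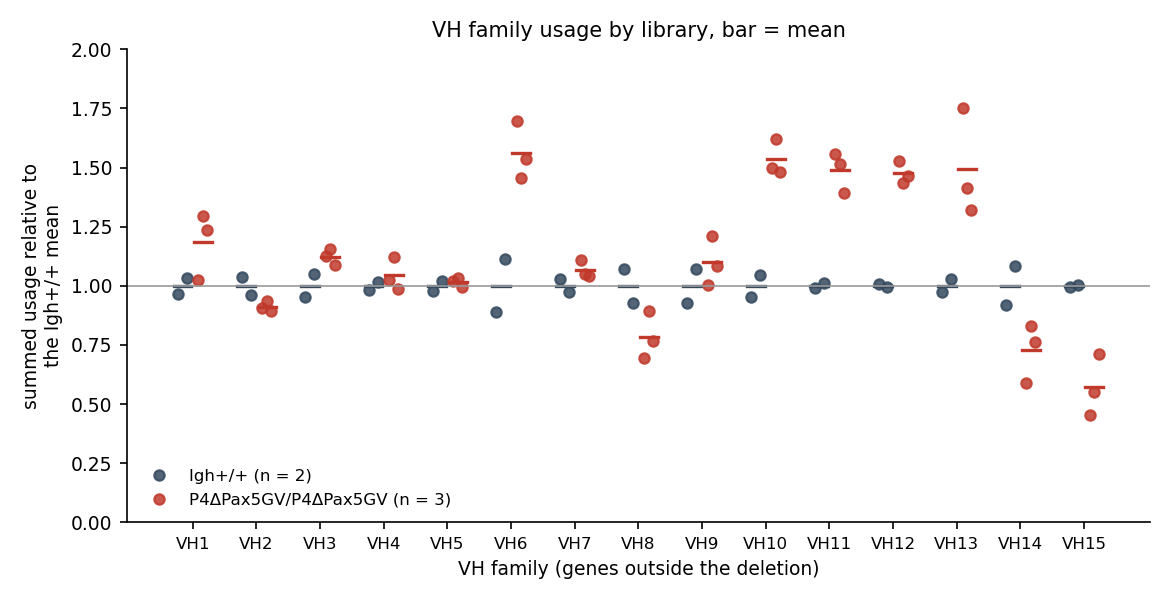
Summed usage of the VH genes outside the deletion for each VH family, divided by the mean of the 2 Igh+/+ libraries, on a linear axis from 0, with 1 point per library and bars for group means. VH6, VH10, VH11, VH12 and VH13 points of the 3 mutant libraries lie above both Igh+/+ points, VH14 and VH15 points lie below them, and VH1 and VH5 points overlap.

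The question whether the Pax5 site itself matters is addressed by comparing the P4ΔPax5GV with the P4GV allele, as both contain the same deletion and module. The 3 P4GV libraries compared here belong to another experiment series, and each genotype was therefore set relative to the Igh+/+ libraries of its own series. The mean relative usage of the 6 distal genes was 1.45, 1.599 and 1.55 in the P4ΔPax5GV libraries and 1.94, 2.07 and 2.21 in the P4GV libraries (1 being the Igh+/+ mean). It was thus lower by 0.537 with the mutated site, and the genotypes did not overlap (1.53 ± 0.0750 and 2.07 ± 0.135 (SD, n = 3 each), exact permutation test p = 0.1, the smallest that 3 against 3 libraries allow). The difference was -0.342 without Igh+/+ library 1 of the P4GV series, and ranged from -0.683 to -0.342 with each library left out. The error of the Igh+/+ means is not part of this test, and these means differed between the series, as the distal sum was 1.51% and 1.72% in the controls of the Pax5-site mutant and 1.06%, 1.32% and 1.39% in those of P4GV. Without this scaling the sums overlapped, at 2.56%, 2.95% and 2.89% for P4ΔPax5GV and 2.82%, 2.93% and 3.17% for P4GV (difference of the mean per gene -0.029%, exact permutation test p = 0.5). A further library labelled P4GV belongs to the series of the Pax5-site mutant, but its file is identical to that of a library labelled Igh P4ΔCtcfGV/P4ΔCtcfGV, and it was used only as an alternative. Its distal sum was 3.03%, and relative to the same 2 Igh+/+ libraries as the mutant it was at 1.66, just above the highest P4ΔPax5GV library. With it the difference was -0.434 (exact permutation test p = 0.0571, n = 3 and 4).

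No single gene passed the test of the difference between both effects. Of 105 genes tested, 0 were called (0%) by limma with Benjamini-Hochberg adjustment, and 3 had an unadjusted p below 0.05. The change of VH1-81 was smaller with the mutated site by 0.46 on the log2 scale (95% interval -0.85 to -0.07) and that of VH1-82 by 0.60 (-1.18 to -0.03), while VH5-1 differed in the other direction. All 3 had an adjusted p of 0.951 or more in limma. For VH1-80 the difference was -0.05 (-0.59 to 0.48), for VH1-85 -0.40 (-1.02 to 0.23), for VH1-84 -0.56 (-1.44 to 0.31) and for VH1-83 -0.73 (-1.96 to 0.51). The difference was below 0 for 6 of 6 distal genes, with a median of -0.51 compared with -0.05 over all genes tested. These 6 genes were measured in the same libraries and against the same Igh+/+ libraries, so they are not independent of each other. The 95% interval reached 0.68 to either side of the estimate in the median gene, so that smaller differences were mostly not detectable with these libraries.

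Most genes called for P4ΔPax5GV were also called for P4GV. In its own comparison with Igh+/+, 17 of 106 genes (16%) passed the test by limma, 14 higher (13.2%) and 3 lower (2.83%). Of the 13 genes called in the P4ΔPax5GV comparison, 11 were also called in the same direction for P4GV, which is 84.6% of the former and 64.7% of the latter. The 2 comparisons share no libraries. The exceptions were VH11-2 and VH13-2, which missed the threshold for P4GV. All 11 genes that rose in P4ΔPax5GV had a log2 change above 0 in P4GV. The log2 change in P4GV was 1.47 for VH1-81, 1.13 for VH1-82, 1.16 for VH1-80, 0.83 for VH1-85, 0.61 for VH1-84 and 0.85 for VH1-83.

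Compared with the deletion alone, the distal genes were far more used on the P4ΔPax5GV allele. The 6 distal genes summed to 0.450%, 0.615% and 0.409% of joints in the Igh Δ890/Δ890 libraries, and VH8-7 was at 0, as the deletion removes it. Relative to their own Igh+/+ libraries the 6 genes were at 0.351, 0.396 and 0.266 with the deletion alone and at 1.45, 1.599 and 1.55 with the module containing the mutated Pax5 site. This was a 4.54-fold higher relative usage (1.53 ± 0.0750 and 0.338 ± 0.0663 (SD, n = 3 each), exact permutation test p = 0.1), and the lowest P4ΔPax5GV library was far above the highest Δ890 library.

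The genes that passed the test of this difference lay mostly around the insertion point. Of 104 genes tested, 14 differed in their change from Igh+/+ between both alleles (13.5%, limma), and all 14 were higher with the module. They included 6 of 6 distal genes, 5 of 10 adjacent downstream genes, 2 of 30 genes of the VH1-1 to VH1-26 block and 1 name without position, but 0 of 24 middle and 0 of 17 proximal genes, although the difference was above 0 in 22 and 14 of these as well (87 of 104 over all genes). As a share of VDJH joints the count was 4 (VH1-80, VH1-81, VH1-82 and VH1-39). It was 7 and 8 without the Igh+/+ library 2 or 1 of the Pax5-site mutant, 9 without mutant library 2, 8 without Δ890 library 3 and 8, 9 and 9 without the Igh+/+ libraries 1, 2 and 3 of the Δ890 series. It rose to 21 without mutant library 1, where the middle gene VH12-1 was called, and to 21 without Δ890 library 2, where the middle genes VH11-2, VH12-1 and VH7-1 were called. The differences were 2.56 on the log2 scale for VH1-80 (limma adjusted p = 0.00028), 2.35 for VH1-82 (0.000531) and 2.10 for VH1-81 (3.41e-06). They were 1.84 for VH1-83, 1.68 for VH1-84 and 1.37 for VH1-85. On the downstream side VH1-39 differed by 1.59 (limma adjusted p = 0.00157), VH1-27 by 1.36, VH1-42 by 1.28 and VH1-47 by 1.09. The median difference was 1.97 for the distal and 1.17 for the adjacent downstream genes, compared with 0.34 over all genes tested.

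Several genes far from the insertion that rose in P4ΔPax5GV also rose with the deletion alone. In the comparison of Δ890 with its own controls, 7 of 105 genes were higher (6.67%) and 52 lower (49.5%) by limma. Of the 13 genes called for P4ΔPax5GV, 7 were called in the same direction for Δ890, which is 53.8% of the former and 11.9% of the latter, and these were VH1-12, VH10-1, VH10-3, VH13-2, VH15-2, VH1S5 and VH6-3. The log2 change on the Δ890 allele was 0.96 for VH1-12, 0.44 for VH10-1, 0.35 for VH6-3 and -1.19 for VH15-2. VH1-80 and VH1-81 were called in the opposite direction, as they fell on the Δ890 allele and rose on the P4ΔPax5GV allele.

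**Figure D5:**
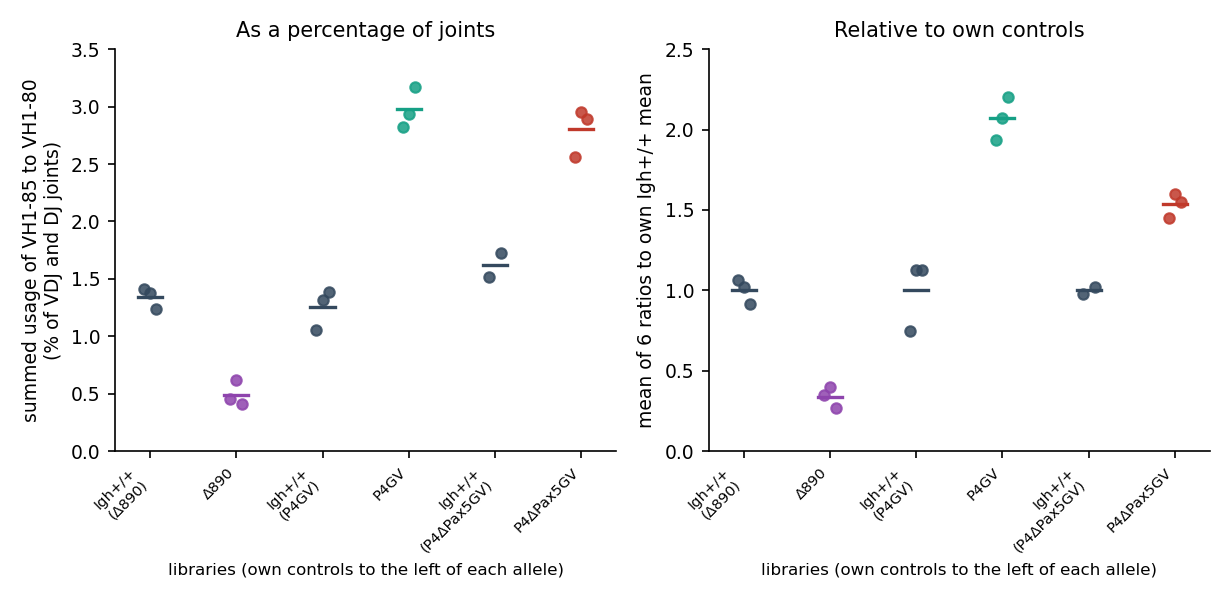
Usage of the 6 distal VH genes on 3 alleles that share the 890-kb deletion, each beside the Igh+/+ libraries of its own experiment series, with 1 point per library and bars for means. The left panel gives the summed usage as a percentage of all joints, where P4ΔPax5GV (2.56% to 2.95%) and P4GV (2.82% to 3.17%) overlap. The right panel gives the mean over genes of the ratio to the own Igh+/+ mean, where the P4ΔPax5GV libraries (1.45 to 1.599) lie below the P4GV libraries (1.94 to 2.21) and above the Δ890 libraries (0.266 to 0.396).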

How the data were processed

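Per the methods of the study, the authors sheared genomic DNA of sorted pro-B cells, ligated adapters with unique molecular identifiers, extended from JH primers, sequenced the products and assigned deduplicated reads to VH genes. The deposited values are percentages, in which the authors had divided the unique joints of each VH gene by all unique VDJH and DJH joints of the library. The submitters' processing notes name R (version 3.3.3). No joint numbers come with the percentages and none were inferred from them, so the depth is unknown, no counting interval is given, and the spread between 3 and 2 mice limits the precision.

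The members and gene lists were chosen with earlier results of these data known. Of the VDJ-seq files 33 were read here. RNA-seq files and genotypes not named in the text were not used. Groups were taken from the genotype and title labels. Summed usage was compared by two-sided exact permutation tests of the group means over all arrangements, with Benjamini-Hochberg adjustment over regions or families. Single VH genes not placed in the deletion, including names without a position, were kept from a mean usage of 0.01% upwards and fitted with limma (version 3.58.1, R 4.3.3, eBayes with trend) on log2(usage + 0.01) with a threshold of 0.05, so that fold changes of rare genes are understated. Ratios are of mean usages. Differences of effects were contrasts over 4 groups, 11 libraries in all. Tables were handled with Python 3.11.15, pandas 2.3.3 and numpy 2.4.6. The fits and permutation tests were tested on simulated data first. The genes named are the 6 distal genes, VH8-7, 6 downstream genes, VH1-27, VH5-2 and VH2-2, the most used gene of each family, and up to 6 higher and 6 lower genes with the smallest adjusted p and no overlap. Gene positions are from RefSeq (GRCm38, mm10). RSS sequences and the match of the Pax5 site are from mm9 (NCBIM37), and the site itself is the oligonucleotide designed for the study. Alternatives were other denominators, pseudocounts, filters and controls, and leaving out each library.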

Additional observations from a re-analysis of the deposited data

Results flagged for a closer look

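The change from Igh+/+ differed between the P4ΔPax5GV and the Δ890 allele for 14 VH genes by the limma contrast with Benjamini-Hochberg adjustment. Among the genes named in the text, the log2 difference of the changes was 1.37 for VH1-85, 1.68 for VH1-84, 1.84 for VH1-83, 2.35 for VH1-82, 2.10 for VH1-81, 2.56 for VH1-80, 1.09 for VH1-47, 1.28 for VH1-42, 1.59 for VH1-39 and 1.36 for VH1-27, always higher with the module. In another experiment series with 6 Igh+/+ libraries, which served only as additional controls, 1 library stood apart with 78.8% VDJH joints, and with 23.2% of joints from VH genes of the deleted interval. Chance flags about 1 in 20 such groups. In the 2 libraries that are labelled Igh+/+ but were set aside, the 6 distal VH genes summed to 2.76% and 4.73% of joints, which is above the 1.51% and 1.72% of the control libraries.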

How the results depend on the processing

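No paired analysis was possible because the labels give no replicate numbers. The gain of the 6 distal genes over Igh+/+ kept its direction under every alternative run, at 1.08% to 1.31% with each library left out and 1.09% against all 18 Igh+/+ libraries. The loss of VDJH joints (-6.84% to -4.88% with each library left out) became a gain of 3.70% outside the deletion. As a share of VDJH joints, differences turned to 3.34% for the proximal region and 0.5997% for VH2, and log2 changes to 0.056 for VH1-39, 0.11 for VH1-27, 0.17 for VH7-1, 0.16 for VH9-3 and 0.17 for VH14-3. As a share of VDJH joints outside the deletion, they turned to -0.634% for the middle region, -0.227% for VH4, -1.64% for VH5, -0.120% for VH7, -0.0658% for VH9, and on the log2 scale -0.10 for VH1-84, -0.026 for VH1-83, -0.11 for VH2-2, -0.057 for VH3-6 and -0.11 for VH4-1. With 1 more Igh+/+ library, whose file is identical to that of a library labelled Igh P4ΔCtcfGV/P4ΔCtcfGV and which is also among the 18, VH5 turned to -0.163%. Against all Igh+/+ libraries, the middle region turned to -0.0912%, VH3 to -0.0101%, VH5 to -0.592%, VH7 to -0.0494% and VH9 to -0.0233%, and the log2 changes of VH2-2 and VH3-6 to -0.036 and -0.081. With these more numerous controls the deleted interval differed by -10.3%, which is no test, as libraries were set aside for lacking its genes, and VH2 (-0.634%), VH8 (-0.197%), VH11 (0.236%), VH12 (0.379%), VH13 (0.328%) and VH15 (-0.244%) passed the permutation test, which 3 against 2 libraries cannot.

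Leaving out 1 library turned the proximal region to 0.00747% (lowest -0.149%) and VH5 to -0.0398% (highest 0.221%), and log2 changes ranged from -0.19 to 0.27 for VH1-84, -0.060 to 0.35 for VH1-83, -0.36 to 0.052 for VH1-39, -0.32 to 0.10 for VH1-27, -0.045 to 0.11 for VH4-1, -0.21 to 0.091 for VH9-3 and -0.13 to 0.078 for VH14-3. The 13 calls against Igh+/+ became 22 (share of VDJH joints), 7 (no trend in eBayes), 20 (1 more control) or 36 (all Igh+/+ libraries, 11 higher and 25 lower), and 1 to 29 with each library left out. The 14 differences from Δ890 became 4 as a share of VDJH joints and 7 to 21 with each library left out, and the 0 differences from P4GV stayed 0 under every alternative. The distal difference from P4GV was -0.566 with the P4GV library of the mutant's own series added and scaled to the additional Igh+/+ library alone (exact permutation test p = 0.0286), and -0.434 with that library scaled like the mutant libraries (exact permutation test p = 0.0571), so that only the former scaling gave a p below 0.05. Without scaling, the mean per gene differed by -0.116% of VDJH joints (exact permutation test p = 0.2). The last 2 alternatives were chosen after seeing the data. The cause of these shifts was not tested beyond the change of controls or denominator itself. Depth limits the rare genes, and joint numbers are not given.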
